A study of Mus musculus with 14 samples.

Results

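The 37 genes described here are a list of mouse interferon-induced genes, named by symbol, out of 38926 gene entries in the LSK and MyePro count files and 39179 gene IDs in the LT-HSC count files. All 37 were found in both kinds of file. They were followed in 8 RNA-seq libraries of bone marrow cells sorted from mixed chimeras, and no measured value entered their choice, although the list was proposed after results of these data were known. By role they fall into 6 nucleic acid sensors, 5 signalling and feedback genes, 14 antiviral effectors, 5 genes of the OAS family, 4 genes of the ISG15 and PARP9-DTX3L group and 3 antigen processing genes.

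The donors were Mx1-Cre; Dpy30F/+ (control) or Mx1-Cre; Dpy30F/- (KO) mice. Dpy30 encodes a core subunit of the enzyme complexes that methylate lysine K4 of histone H3, and Mx1-Cre is a recombinase under the interferon-inducible Mx1 promoter. Donor marrow was mixed with wild-type C57Bl/6J competitor marrow and given to irradiated recipients. From 7 weeks after the transplant every recipient received 4 injections of pIpC, a synthetic double-stranded RNA, at 7.5 µg per g of body weight. Marrow was taken 2 weeks after the last injection, from 2 to 3 chimeras per pool for LSK and MyePro cells and from 7 to 9 per pool for LT-HSCs. LSK cells are lineage-negative, Sca-1-positive, c-Kit-positive cells that hold the stem cells and early progenitors, LT-HSCs are the long-term repopulating stem cells among them, and MyePro is the labels' name for the other progenitor population. There is 1 library for each genotype of LSK and MyePro cells and there are 2 for each genotype of LT-HSCs, numbered by transplant.

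Controls thus carried Mx1-Cre and a floxed allele and received pIpC as well, so no library shows these genes without pIpC. The comparisons below are KO against control, and LSK against MyePro, in marrow that had all been exposed to the same inducer. The Mx1 entry may also be affected by strain and by the Mx1 promoter of the transgene. Host cells, competitor cells and donor cells share the marrow, and the labels state donor origin only for the LT-HSCs.

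Double-stranded RNA such as pIpC is sensed by endosomal and cytosolic receptors, which switch on type I interferon genes. Interferon binds the IFNAR receptor, whose kinases JAK1 and TYK2 activate STAT proteins. The resulting factor ISGF3, which includes STAT2 and IRF9, binds the interferon-stimulated response element (ISRE) in the promoters of genes such as those listed here. In the marrow, interferon given acutely is known to bring resting stem cells into cycle and to raise Sca-1 on progenitors. Usp18, Socs1 and Socs3 are among the genes that switch the response off again.

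Promoter letters were read from RefSeq (build GRCm38.p6) in windows from 250 bases before to 50 bases after a listed start of each gene. Match positions are counted from that start. It can differ from the gene boundary given in the coordinates below, as it does for Oas3. A window was listed for 28 of the 37 genes, and Rtp4, Mx2, Oas2, Zbp1, Parp14, Dhx58, Usp18, Mx1 and Parp9 had none. The ISRE core, searched as GAAANNGAAA or its reverse TTTCNNTTTC on either strand, was found in 13 of the 28 (46.4%) and in 3.99% of all 27025 genes with a window. The shorter GAS core TTCNNNGAA, a site of STAT dimers that can overlap an ISRE, was found in 8 of the 28 (28.6%) against 9.55% of all genes. Of the members at least 2-fold higher in the KO MyePro library, Usp18 and Zbp1 had no window and Oasl2 had no ISRE match. Bst2, Eif2ak2, Ifih1, Ifitm3, Isg15, Oas1a, Rsad2 and Stat2 had a match and stayed within 2-fold there. Whether a match goes with the KO ratio was not tested. The stretches below come from 4 genes at least 2-fold higher in that library and from Isg15. Each is written 5′ to 3′ in the direction of transcription, with ISRE matches in capitals.
Ddx58: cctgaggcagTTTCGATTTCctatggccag
Gbp2: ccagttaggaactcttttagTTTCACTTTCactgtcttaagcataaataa
Ifit1: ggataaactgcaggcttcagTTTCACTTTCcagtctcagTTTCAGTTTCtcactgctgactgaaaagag
Oas3: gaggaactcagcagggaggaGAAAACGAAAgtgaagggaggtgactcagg
Isg15: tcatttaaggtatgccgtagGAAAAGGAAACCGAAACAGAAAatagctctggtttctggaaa

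The Ddx58 stretch is chr4:40239804-40239833 on the minus strand, and its match begins 2 bases after the start base, counted as 0. Gbp2 is shown at chr3:142620584-142620633 (plus strand, match at -59), Ifit1 at chr19:34640765-34640833 (plus strand, 2 matches, the upstream one at -104), and Oas3 at chr5:120777705-120777754 (minus strand, match at -75). In Isg15, at chr4:156200855-156200916 on the minus strand, 3 matches overlap in a run that begins at -78. A match is a description of letters, and no binding data were used.

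The deposited counts gave 6130320 to 20820762 gene counts in the 4 LSK and MyePro libraries and 38060087 to 85499797 in the 4 LT-HSC libraries, in which mitochondrial ribosomal RNA took 45.1% to 62.4% of gene counts. A count of 3 corresponds to at most 0.489 CPM in any library. CPM are reads of a gene per 1000000 gene reads of the library, scaled by TMM, a factor that aligns the bulk of genes between libraries. Dpy30 itself was at 78.0 CPM in control LSK against 41.7 in KO LSK, and at 116 in control MyePro against 51.6 in KO MyePro. In LT-HSCs Dpy30 was at 13.0 and 8.45 CPM in controls 1 and 2, 14.1 in the library labelled KO LT-HSC 1 and 4.68 in KO LT-HSC 2, so the first KO library does not show a lower gene-level count. Which exons the floxed allele loses is not given in the sources used here, and counts over the whole gene may include parts that remain. The myeloid progenitor marker list (Mpo, Elane, Prtn3, Ctsg, Ms4a3) summed to 11078 CPM in control MyePro and 3124 in control LSK, and the stem cell list (Kit, Ly6a, Cd34, Flt3, Slamf1, Procr, Mecom) to 765 and 1477.

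KO and control were first compared within LSK and within MyePro cells. With 1 library per group there is no test: a gene is counted as higher or lower past a 2-fold difference. Only genes whose mean over the pair compared reached 5 CPM were counted, and intervals are 95% counting intervals that leave out variation between mice. In MyePro cells, 7 of the 32 members that passed the 5 CPM minimum were at least 2-fold higher in the KO library (Usp18, Ddx58, Ifit1, Gbp2, Oasl2, Oas3, Zbp1), where 10.7% of all 10249 genes were. Oasl1 was the 1 member at least 2-fold lower, where 8.63% of all genes were. In LSK cells 2 of 33 members were higher, Ddx58 and Usp18, with 4.78% of 10299 genes higher, and none was 2-fold lower, with 5.67% of all genes lower. The median log2 ratio of KO over control was 0.30 over the 32 MyePro members, beside -0.12 over all genes, and 0.06 over the 33 LSK members, beside -0.06. The ratio was above 0 for 22 of 32 members in MyePro (42.7% of all genes) and for 17 of 33 in LSK (44.6% of all genes). Genes low in both libraries could not pass, so these counts do not speak for all 37. A gene under 5 CPM in 1 library could pass through the other, here and in the other lists and comparisons below. In MyePro, Ifit1 (2.10 CPM in control, 8.32 in KO) and Usp18 (3.89 and 24.1) passed through the KO library. With a minimum mean of 10 CPM, 5 of 27 MyePro members were higher and 1 lower. The share of all genes at that minimum was not computed.

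**Figure D1:**
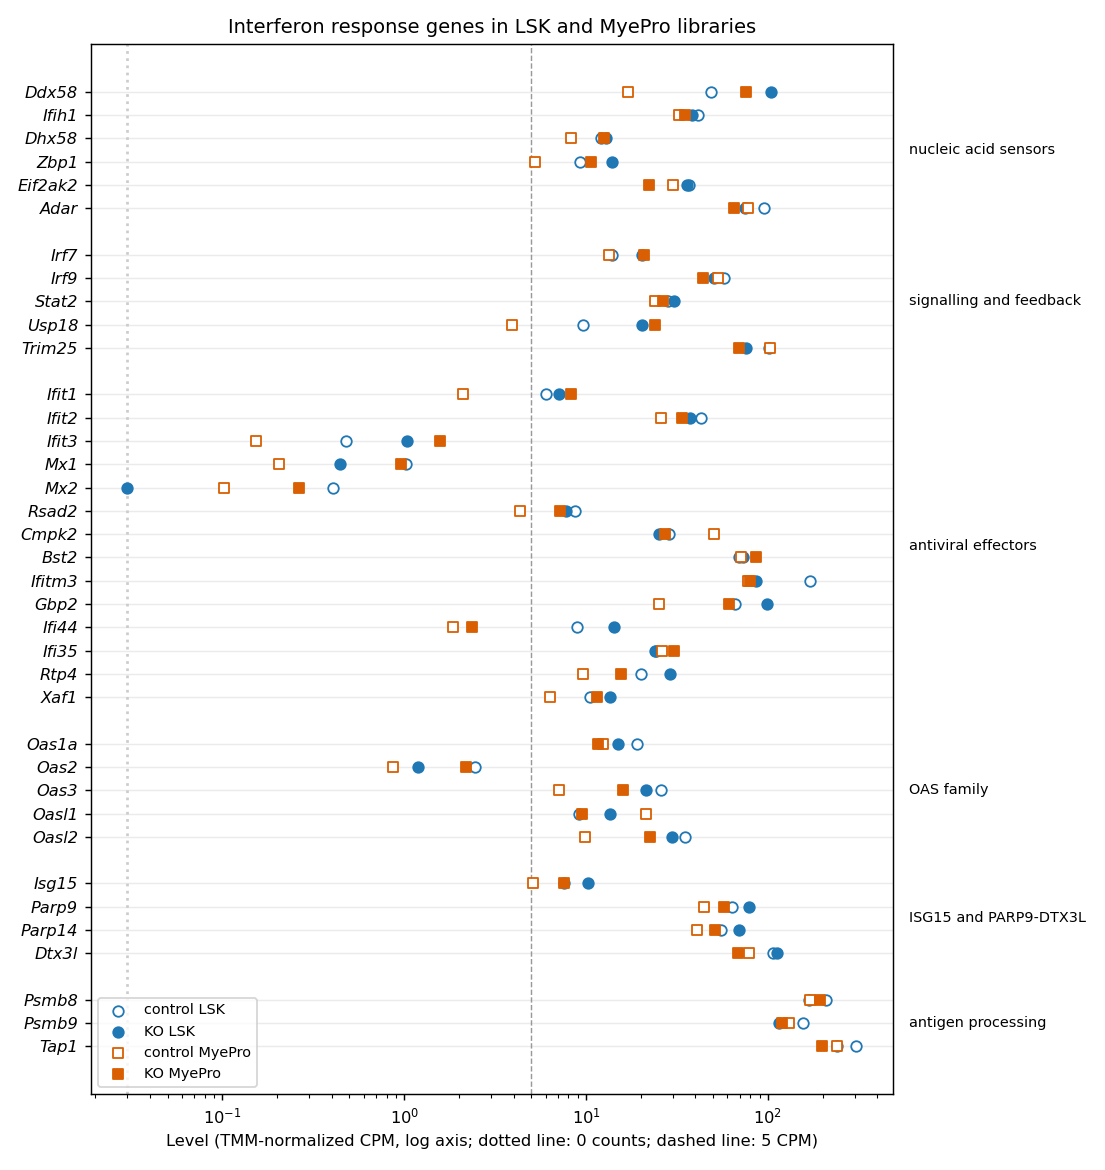
Level of each of the 37 interferon genes in the 4 LSK and MyePro libraries, in TMM-normalized CPM on a log axis, with genes in rows by role, LSK as circles, MyePro as squares, control open and KO filled. The dashed line is 5 CPM and the dotted line stands for 0 counts. The open square is the left-most symbol for Ddx58, Usp18, Gbp2, Oas3 and Oasl2, and the right-most for Oasl1 and Cmpk2.

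Among the sensors, Ddx58 (chr4:40203777-40239825), which encodes the cytosolic RNA sensor RIG-I, was at 48.9 CPM in control LSK, 104 in KO LSK, 17.0 in control MyePro and 75.8 in KO MyePro. It was 2.11-fold higher in KO than control LSK (log2 ratio 1.08, interval 0.93 to 1.23) and 4.42-fold higher in MyePro (log2 ratio 2.15, interval 1.97 to 2.34). Control MyePro was thus the low library of the 4, and KO LSK the high one. Zbp1, a sensor of Z-form nucleic acids, was at 9.24 and 14.0 CPM in control and KO LSK and at 5.23 and 10.7 in control and KO MyePro, with log2 ratios of 0.59 (0.20 to 0.99) and 1.010 (0.64 to 1.42). Zbp1 lies at the 2-fold line in MyePro, and RLE scaling in place of TMM put it just inside (0.9994), leaving 6 genes past it. The other 4 sensors stayed within 2-fold. Dhx58, the RIG-I-like receptor LGP2, had log2 ratios of 0.09 in LSK and 0.59 in MyePro, and Ifih1, the sensor MDA5, had -0.11 and 0.11. Eif2ak2, the kinase PKR that halts translation on double-stranded RNA, was at 36.6, 35.7, 30.1 and 22.3 CPM in the same order of libraries, a log2 ratio of -0.43 (-0.65 to -0.22) in MyePro. Adar, which edits double-stranded RNA, had -0.34 and -0.24.

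The signalling and feedback genes did not move as a block. Usp18 (chr6:121245906-121270917) encodes a protease that removes ISG15 from proteins and blocks signalling at IFNAR. It was at 9.58 CPM in control LSK, 20.4 in KO LSK, 3.89 in control MyePro and 24.1 in KO MyePro. Its log2 ratio of 2.58 in MyePro (2.26 to 3.01, 5.99-fold) was the largest among the 32 members, and that in LSK was 1.08 (0.74 to 1.44). Irf7, the factor that amplifies interferon production, was at 13.9 and 20.2 CPM in control and KO LSK and at 13.4 and 20.7 in control and KO MyePro, log2 ratios of 0.53 (0.21 to 0.86) and 0.62 (0.37 to 0.89). The ISGF3 subunit genes among the members stayed well within 2-fold: Irf9 had log2 ratios of -0.17 and -0.28, and Stat2 had 0.10 and 0.15. Trim25, the ubiquitin ligase that activates RIG-I, was lower in both KO libraries, at 102 and 75.9 CPM in control and KO LSK and 103 and 69.9 in control and KO MyePro, with log2 ratios of -0.42 (-0.57 to -0.28) and -0.55 (-0.67 to -0.44).

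Of the 14 antiviral effectors, 10 passed the minimum in MyePro, 9 of them with a ratio above 0, and 11 passed in LSK, 6 of them above 0. Ifit1 (chr19:34640889-34650009), which binds foreign RNA caps, was at 6.05 and 7.14 CPM in control and KO LSK and at 2.10 and 8.32 in control and KO MyePro. These are 89, 48, 41 and 95 reads, and the log2 ratio was 0.23 (-0.30 to 0.76) in LSK and 1.91 (1.44 to 2.55) in MyePro. Gbp2 (chr3:142620663-142638008), a guanylate-binding GTPase, was at 65.6 and 98.8 CPM in control and KO LSK and at 25.1 and 61.4 in control and KO MyePro. Its log2 ratios were 0.59 (0.45 to 0.73) and 1.29 (1.12 to 1.46). For both genes the MyePro ratio rests on a low control MyePro library, while the 2 KO libraries lie closer together.

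Ifitm3, which blocks viral entry at endosomes, had another order. It was at 170 CPM in control LSK, 86.4 in KO LSK, 78.0 in control MyePro and 79.3 in KO MyePro, so control LSK stood above the other 3. The log2 ratio of -0.98 in LSK (-1.11 to -0.85) came close to the 2-fold line from inside, and that in MyePro was 0.02. Cmpk2, a mitochondrial nucleotide kinase, was at 28.6 and 25.1 CPM in control and KO LSK and at 50.3 and 27.2 in control and KO MyePro, a log2 ratio of -0.88 (-1.07 to -0.70) in MyePro. Its neighbour Rsad2, which encodes viperin, had -0.17 in LSK and 0.70 (0.26 to 1.18) in MyePro, with 8.70, 7.74, 4.36 and 7.18 CPM in the 4 libraries. Thus 2 genes that lie next to each other on chromosome 12 had ratios of opposite sign in MyePro.

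Ifi44 was at 8.90 and 14.3 CPM in control and KO LSK, a log2 ratio of 0.67 (0.29 to 1.07), and at 1.84 and 2.36 in control and KO MyePro, under the minimum. Rtp4 had log2 ratios of 0.53 (0.26 to 0.80) and 0.67 (0.37 to 0.98), and Xaf1, a regulator of apoptosis, had 0.37 and 0.85 (0.50 to 1.23), from 10.5, 13.5, 6.30 and 11.5 CPM. Ifit2 had -0.20 and 0.38, Ifi35 had -0.02 and 0.21, and Bst2, the virus tether tetherin, had 0.06 and 0.27. Ifit3, Mx1 and Mx2 were under the minimum in every comparison. Ifit3 was at 0.476, 1.04, 0.154 and 1.58 CPM, and Mx1, a dynamin-like GTPase that traps viruses, at 1.02, 0.446, 0.205 and 0.963. Mx2 had 6 reads in control LSK, 0 in KO LSK, 2 in control MyePro and 3 in KO MyePro, so these GTPase genes were close to undetected at this depth.

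The OAS genes, which encode oligoadenylate synthetases that activate RNase L and relatives without that activity, lie on chromosome 5. Of the 5, 4 passed in each population. Oas3 (chr5:120753098-120777684) was at 26.0 and 21.4 CPM in control and KO LSK and at 7.12 and 16.0 in control and KO MyePro. The log2 ratio was -0.28 (-0.56 to 0.00) in LSK and 1.15 (0.84 to 1.498) in MyePro. Oasl2 (chr5:114896926-114912245) showed the same order, at 35.1, 29.8, 9.84 and 22.5 CPM, with log2 ratios of -0.24 (-0.48 to 0.00) and 1.18 (0.92 to 1.47). Oasl1 (chr5:114923143-114937911), which lies beside Oasl2 and is known to restrain translation of Irf7, went the other way. It was at 9.11 and 13.5 CPM in control and KO LSK, a log2 ratio of 0.56 (0.17 to 0.97), and at 21.3 and 9.45 in control and KO MyePro, a log2 ratio of -1.16 (-1.49 to -0.86). In this gene control MyePro was the highest of the 4 libraries, not the lowest. Oas1a had -0.34 and -0.10, and Oas2 stayed under the minimum at 0.871 to 2.45 CPM.

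Isg15, a ubiquitin-like protein that is attached to other proteins, was at 7.61 and 10.3 CPM in control and KO LSK and at 5.12 and 7.53 in control and KO MyePro, with log2 ratios of 0.42 (-0.02 to 0.88) and 0.54 (0.12 to 0.99). The ADP-ribosyltransferase genes Parp9 and Parp14 had 0.30 and 0.32 in LSK and 0.36 and 0.32 in MyePro. Dtx3l, the ubiquitin ligase that pairs with PARP9, had 0.07 and -0.19. Parp9 and Dtx3l overlap in the annotation, so reads in the overlap could be lost to both. None of these 4 genes reached 2-fold.

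The antigen processing genes lie side by side at chr17:34182030-34201454 and were lower in KO LSK. Psmb8, an immunoproteasome subunit, was at 208 and 169 CPM in control and KO LSK, Psmb9 at 156 and 115, and the peptide transporter gene Tap1 at 307 and 240, with log2 ratios of -0.30, -0.44 and -0.36. In MyePro the log2 ratios were 0.18 (0.10 to 0.26) for Psmb8, -0.13 for Psmb9 and -0.28 for Tap1. With these counts the intervals lie away from 0, though all 6 ratios are well within 2-fold.

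**Figure D2:**
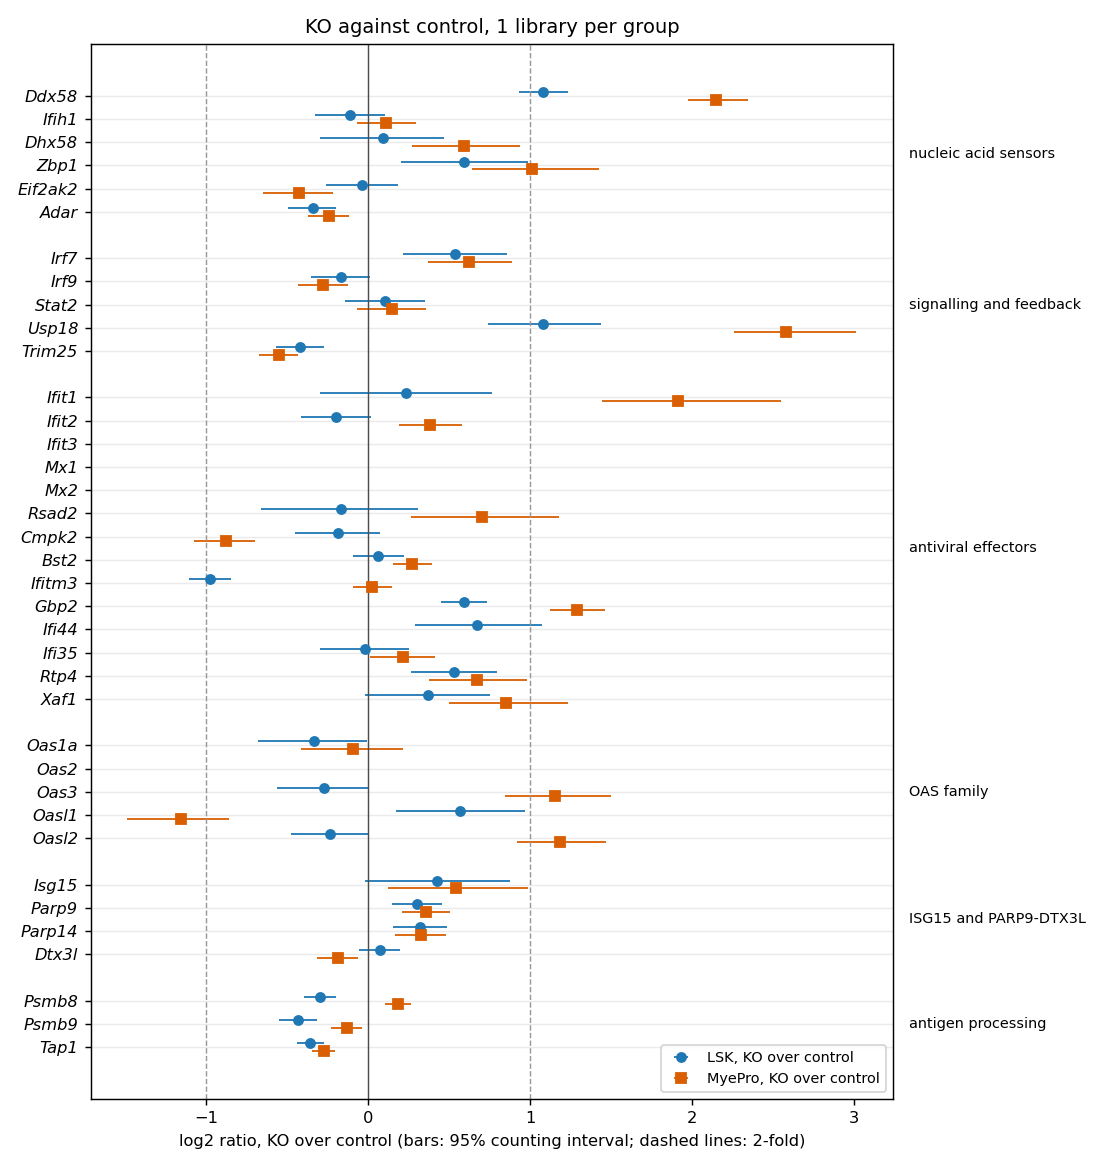
Log2 ratio of KO over control in LSK (circles) and MyePro (squares) for each gene whose mean in that pair reached 5 CPM, with genes in rows by role. Bars are 95% counting intervals from 1 library per group, and dashed lines mark 2-fold. Usp18 and Ddx58 lie to the right of the 2-fold line in both populations, and Oasl1 lies on opposite sides of 0.

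Of the 32 genes that passed in both populations, 14 had a ratio above 0 in both, 8 below 0 in both, and 10 changed sign between them. The shares of all genes with these sign patterns were not computed, so these counts cannot be set against a background. The KO ratio was larger in MyePro than in LSK for 26 of the 32, where 44.8% of all 9973 genes passing both showed this. The difference between the ratios, MyePro minus LSK on the log2 scale, was 1.68 for Ifit1 (0.94 to 2.41), 1.505 for Usp18 (1.006 to 2.00), 1.43 for Oas3 (1.006 to 1.85) and 1.42 for Oasl2 (1.06 to 1.77). It was 1.07 for Ddx58 (0.83 to 1.30), 1.00 for Ifitm3 (0.82 to 1.18) and 0.70 for Gbp2 (0.48 to 0.92). On the other side stood Oasl1 at -1.72 (-2.21 to -1.23) and Cmpk2 at -0.70 (-1.01 to -0.38). These intervals count reads only, and there is no replicate with which to test the difference.

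LSK and MyePro cells were then compared within each genotype. In the controls, 8 of the 32 members passing were at least 2-fold higher in LSK than in MyePro (Ifi44, Oas3, Oasl2, Ddx58, Gbp2, Usp18, Ifitm3, Rtp4), where 6.87% of all 10074 genes were, and Oasl1 was 2-fold lower, where 3.17% were. In the KO libraries, 1 of 33 members was 2-fold higher in LSK, Ifi44, where 1.49% of 10345 genes were, and none was 2-fold lower, where 3.28% were. The median log2 ratio of LSK over MyePro was 0.48 in controls (all genes -0.08) and 0.21 in KO (all genes -0.01). It was above 0 for 27 of 32 members in controls (42.1% of all genes) and for 25 of 33 in KO (48% of all genes). This comparison in controls and the MyePro comparison of KO with control share the control MyePro library, and they are not independent. That library was the lowest of the 4 for 20 of the 33 members whose mean over the 4 reached 5 CPM, where it was lowest for 26.7% of all genes.

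For each gene, the fall in the log2 ratio of LSK over MyePro from controls to KO equals the MyePro minus LSK difference given above. It restates the same counts and is no separate result. By gene, the log2 ratio of LSK over MyePro went from 1.84 (1.58 to 2.16) in controls to 0.42 (0.09 to 0.74) in KO for Oas3, and from 1.82 to 0.40 for Oasl2. For Ddx58 it went from 1.52 (1.33 to 1.72) to 0.45 (0.30 to 0.60), for Gbp2 from 1.38 to 0.69, and for Usp18 from 1.27 (0.89 to 1.72) to -0.24 (-0.55 to 0.06). Ifitm3 went from 1.12 to 0.12. Ifi44, an interferon-induced gene with little known of its function, kept its distance, at 2.18 (1.73 to 2.85) in controls and 2.52 (1.97 to 3.27) in KO. Rtp4 had 1.03 and 0.89, and Oasl1 had -1.21 (-1.52 to -0.94) and 0.51 (0.10 to 0.93). The Sca-1 gene Ly6a is itself interferon-induced and was used to sort LSK cells, so its log2 ratios of 2.66 and 2.40 reflect the gate and are no finding.

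**Figure D3:**
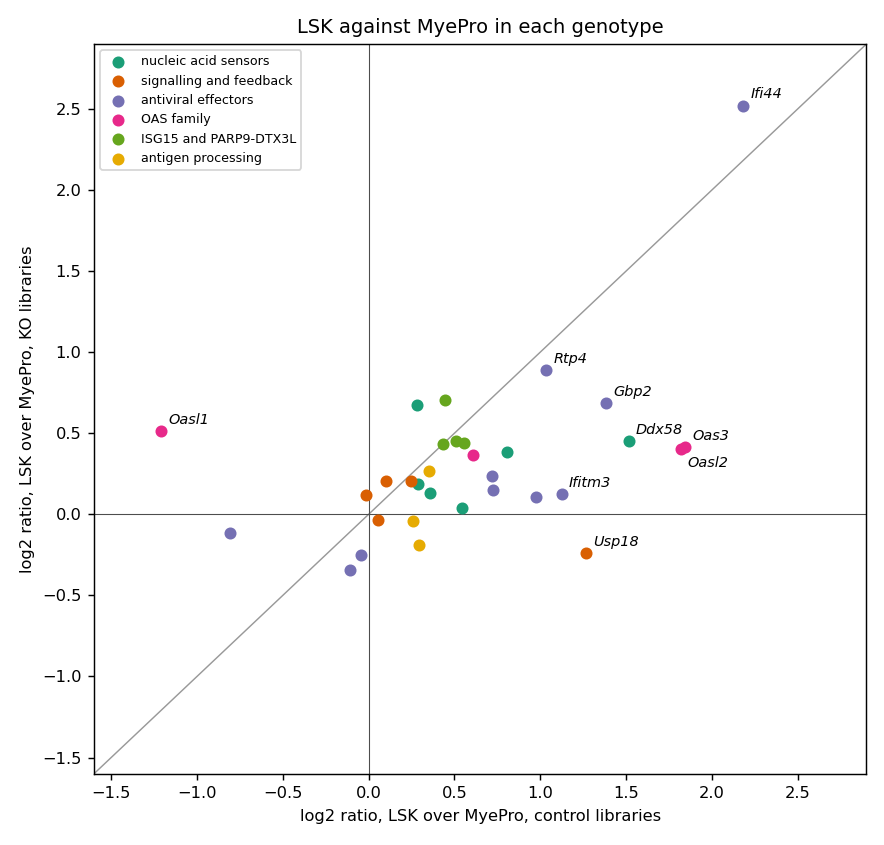
Log2 ratio of LSK over MyePro in the control libraries (x axis) and in the KO libraries (y axis) for the genes whose mean reached 5 CPM in both pairs, coloured by role. The diagonal marks equal ratios, and genes past 2-fold in controls are named. Ifi44 lies near the diagonal at the upper right, while Oas3, Oasl2, Ddx58 and Usp18 lie below it.

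Cell type markers differed between these libraries too. The myeloid progenitor list itself summed to 6209 CPM in KO against 11078 in control MyePro, with Mpo and Prtn3 at least 2-fold lower and Ms4a3 higher, and to 2667 against 3124 in LSK, with Mpo lower and Ms4a3 higher. The stem cell list summed to 695 CPM in KO against 765 in control MyePro and to 1348 against 1477 in LSK, but its genes were split. In LSK 3 of the 7 were at least 2-fold lower in KO and 0 higher, with log2 ratios from -2.00 to 0.95. Of 5 passing in MyePro, 2 were at least 2-fold higher in KO and 1 lower. In KO MyePro the megakaryocyte list (5 genes, all at least 2-fold higher) summed to 1358 CPM against 153 in control MyePro, and the 5 neutrophil genes, 2 of which passed the minimum and were higher, to 298 against 10.5. Monocyte and macrophage genes were split: 5 of 8 were at least 2-fold higher in KO MyePro (Cd68, Adgre1, C1qa and C1qb among them) and Ly6c2 was lower, so that the list summed to 576 CPM in KO against 620 in control. The erythroid list summed to 304 CPM in KO against 3026 in control MyePro, with 4 of 5 genes lower, and to 31.5 against 664 in LSK. The T and NK list summed to 202 CPM in control and 540 in KO MyePro and to 199 and 473 in LSK, most of it Nkg7. In each population 2 of its 7 genes passed the minimum, both at least 2-fold higher in KO. The log2 ratios were 1.17 and 4.73 in LSK and 1.35 and 5.86 in MyePro, so a gene of lower level rose more than the list sum shows. Cd3e stood at 0 reads in control LSK and at 1 read in each of the other 3. In LSK the neutrophil list was at 1.70 CPM in control and 75.6 in KO, the megakaryocyte list at 489 and 614, and the monocyte and macrophage list at 176 and 324. The B cell list stayed under 1 CPM in all 4 libraries. Siglech, which defines plasmacytoid dendritic cells, the chief interferon producers, had 1 read in control LSK and 0 in the other 3, and that list, which shares Bst2 with the members, summed to 202 to 354 CPM, mostly from Irf8, Tcf4 and Bst2. The part of these cell types in the interferon gene values was not tested. In bulk samples, fewer cells of a type and less RNA per cell cannot be told apart.

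The rest of the pathway was read from 7 further gene lists. Interferon genes themselves were all but absent: of 12 listed, only Ifnab had any read in LSK or MyePro (2 in control LSK and 1 in KO MyePro). Among 11 receptor and JAK-STAT genes, none of 10 passing was past 2-fold in LSK and 1, Stat3, was higher in KO MyePro, at 83.4 and 191 CPM in control and KO (log2 ratio 1.19, 1.10 to 1.29). Ifnar1, an IFNAR subunit, was at 67.8 and 61.9 CPM in control and KO LSK and 51.0 and 49.7 in control and KO MyePro. The log2 ratios in LSK and MyePro were -0.26 and -0.42 for Ifnar2, the other subunit, 0.22 and 0.13 for Jak1, and 0.12 and 0.01 for Tyk2.

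Of 12 negative regulators, 11 passed, and 1 in LSK and 3 in MyePro were at least 2-fold higher in KO, with none lower. Among all genes 4.78% were higher in LSK and 10.7% in MyePro. Socs3 was at 6.39 and 39.0 CPM in control and KO LSK and at 0.718 and 18.6 in control and KO MyePro, log2 ratios of 2.58 (2.26 to 2.96) and 4.43 (3.91 to 5.59). Socs1 was at 4.69, 7.29, 1.23 and 10.9 CPM, log2 ratios of 0.62 (0.08 to 1.19) and 2.99 (2.50 to 3.84). Both genes inhibit JAK kinases, and as with Usp18 control MyePro was the lowest library. The third was Pias3, an inhibitor of STAT3, with a log2 ratio of 1.35 in MyePro.

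Among 13 adaptors and receptors of nucleic acid sensing, 12 passed in LSK, with Tlr7 higher and Tlr3 and Ikbke lower, and 11 in MyePro, with Tlr7 higher. Tlr3, the endosomal receptor for double-stranded RNA, was at 8.84 and 1.49 CPM in control and KO LSK (-2.45, -3.66 to -1.65) and at 0.922 and 5.87 in control and KO MyePro, under the minimum. Tlr7, the receptor for single-stranded RNA, was at 5.85 and 16.8 CPM in control and KO LSK (1.4998) and at 1.84 and 17.5 in control and KO MyePro (3.14, 2.73 to 3.80). Of 5 interferon regulatory factors 4 passed, and Irf8, a factor of monocyte and dendritic development, was lower in KO in both populations (-1.21 and -2.21). Irf1, an early interferon-induced factor, had 0.07 in LSK and 0.55 (0.40 to 0.70) in MyePro. In the MHC class I list none of 10 genes was past 2-fold, and 5 of the 10 had a ratio above 0 in each population. In LSK and MyePro the log2 ratios were -0.65 and -0.21 for Nlrc5, the activator of this gene set, and -0.52 and -0.02 for Tap2. They were 0.59 and 0.85 for Tapbp, which loads peptides, and 0.53 and 0.63 for B2m, the light chain.

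A list of 47 other interferon-induced genes gave 1 higher and 3 lower of 42 passing in KO against control LSK, and 7 higher and 2 lower of 40 in MyePro. The shares of all genes higher and lower were 4.78% and 5.67% in LSK and 10.7% and 8.63% in MyePro. The median log2 ratios of the listed genes were -0.02 and 0.23, beside all-gene medians of -0.06 and -0.12. Between LSK and MyePro 11 of 39 were higher and 1 lower in controls, against 3 of 42 higher and 2 lower in KO. The shares of all genes higher and lower were 6.87% and 3.17% in controls and 1.49% and 3.28% in KO. Ifitm1, beside Ifitm3 and of the same family, was higher in KO where Ifitm3 was not: log2 ratios of 1.42 (1.33 to 1.52) in LSK and 1.86 (1.75 to 1.98) in MyePro. Ifi204, a DNA sensor of macrophages, was at 0.820 CPM in control and 12.8 in KO MyePro (3.73, 3.21 to 4.81). Ifi30, a lysosomal reductase, was lower in both (-2.00 and -1.57).

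In LT-HSCs, 35 of the 37 genes were tested (Ifit3 and Mx1 were too low), and none differed between KO and control by edgeR's quasi-likelihood test with Benjamini-Hochberg adjustment over 12844 genes. The adjusted p was 0.999 for all 35. Of all genes 0% were called higher and 0.0156% lower. At an unadjusted p under 0.05 the count of members was also 0, beside 1.01% of all 12844 genes higher and 1.28% lower, and DESeq2 and limma-voom called 0 members as well. The fold change was above 0 for 21 of the 35, beside 50.3% of all genes, with a median log2 fold change of 0.14 (all genes 0.00). Scaling by library totals in place of TMM put 11 of 35 above 0. The member median was then -0.13, beside -0.35 over all genes. The sign of this small median thus depends on the scaling, while the member median stayed above the all-gene median in both. RLE scaling put 21 of the 35 above 0, and totals of the ERCC spike-in RNA put 25. The library labelled KO LT-HSC 1 had a TMM factor of 0.580, where the other LT-HSC libraries had 1.14 to 1.26. The LT-HSC p-values measure only the spread between 2 pools per group.

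The gene with the smallest p was Rsad2, at 7.12 and 4.52 CPM in controls 1 and 2, 9.01 in the library labelled KO LT-HSC 1 and 11.3 in KO LT-HSC 2. Its log2 fold change was 0.80 ± 0.49 (SE; edgeR unadjusted p = 0.148, adjusted p = 0.999). The KO values lie above both controls, but the gap is no larger than the spread within groups. Ifit1 was at 4.52 and 4.68 CPM in controls and at 6.14 and 10.4 in the libraries labelled KO 1 and 2, a log2 fold change of 0.85 ± 0.53 (SE). Oasl1 was at 1.60 and 1.04 in controls and 1.98 and 4.33 in KO (1.25 ± 0.83, SE). In this gene the KO values lie on the side opposite to that in MyePro.

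Further, Eif2ak2 was at 51.1 and 56.5 CPM in controls and 70.2 and 68.0 in KO (0.36 ± 0.25, SE), Oas1a at 2.38 and 3.29 against 6.95 and 3.78, and Oas2 at 10.8 and 5.65 against 12.5 and 13.2. These 6 were the tested members whose KO libraries both lay above both controls, a pattern seen in 13.8% of all genes. Below both controls lay 3, Parp9, Psmb8 and Tap1, beside 13.9% of all genes. Psmb8 was at 32.02 and 29.3 CPM in controls and 13.9 and 28.4 in KO, so that library 1 alone was far from the rest. Tap1 was at 58.2 and 51.1 against 49.0 and 42.9.

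Of the members with the 12 smallest p-values, Ifi35, Oasl2, Xaf1 and Trim25 had overlapping groups. Ifi35 was at 2.66 and 6.95 CPM in controls and 2.24 and 2.75 in KO, so control 2 stood apart (-0.94 ± 0.72, SE). Oasl2 was at 50.002 and 74.95 against 44.3 and 51.6, again with control 2 the highest (-0.38 ± 0.30, SE). Xaf1 was at 7.64 and 12.9 in controls and 9.88 and 19.9 in KO (0.54 ± 0.50, SE). Trim25, lower in both KO progenitor libraries, was at 61.1 and 75.0 in controls and 70.6 and 93.6 in KO (0.27 ± 0.27, SE).

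Of the 8 genes past 2-fold in MyePro, Ifit1 and Oasl1 had LT-HSC groups that did not overlap, as given above, and Ddx58, Usp18, Gbp2, Oasl2, Oas3 and Zbp1 had groups that did. Ddx58 was at 32.8 and 57.9 CPM in controls and at 38.9 and 59.3 in KO, so transplant 2 was higher than transplant 1 in both genotypes (0.11 ± 0.37, SE). Usp18 was at 3.55 and 8.80 in controls and 5.94 and 12.8 in KO, again higher in transplant 2 (0.60 ± 0.64, SE). Within transplants 1 and 2 the log2 ratio of KO over control for Usp18 was 0.74 and 0.54, and for Ddx58 0.25 and 0.03. Gbp2 was at 11.5 and 21.3 in controls and 25.0 and 16.8 in KO, with ratios of 1.12 and -0.34 that differ in sign. Oas3 was at 24.2 and 26.2 against 23.9 and 32.7.

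**Figure D4:**
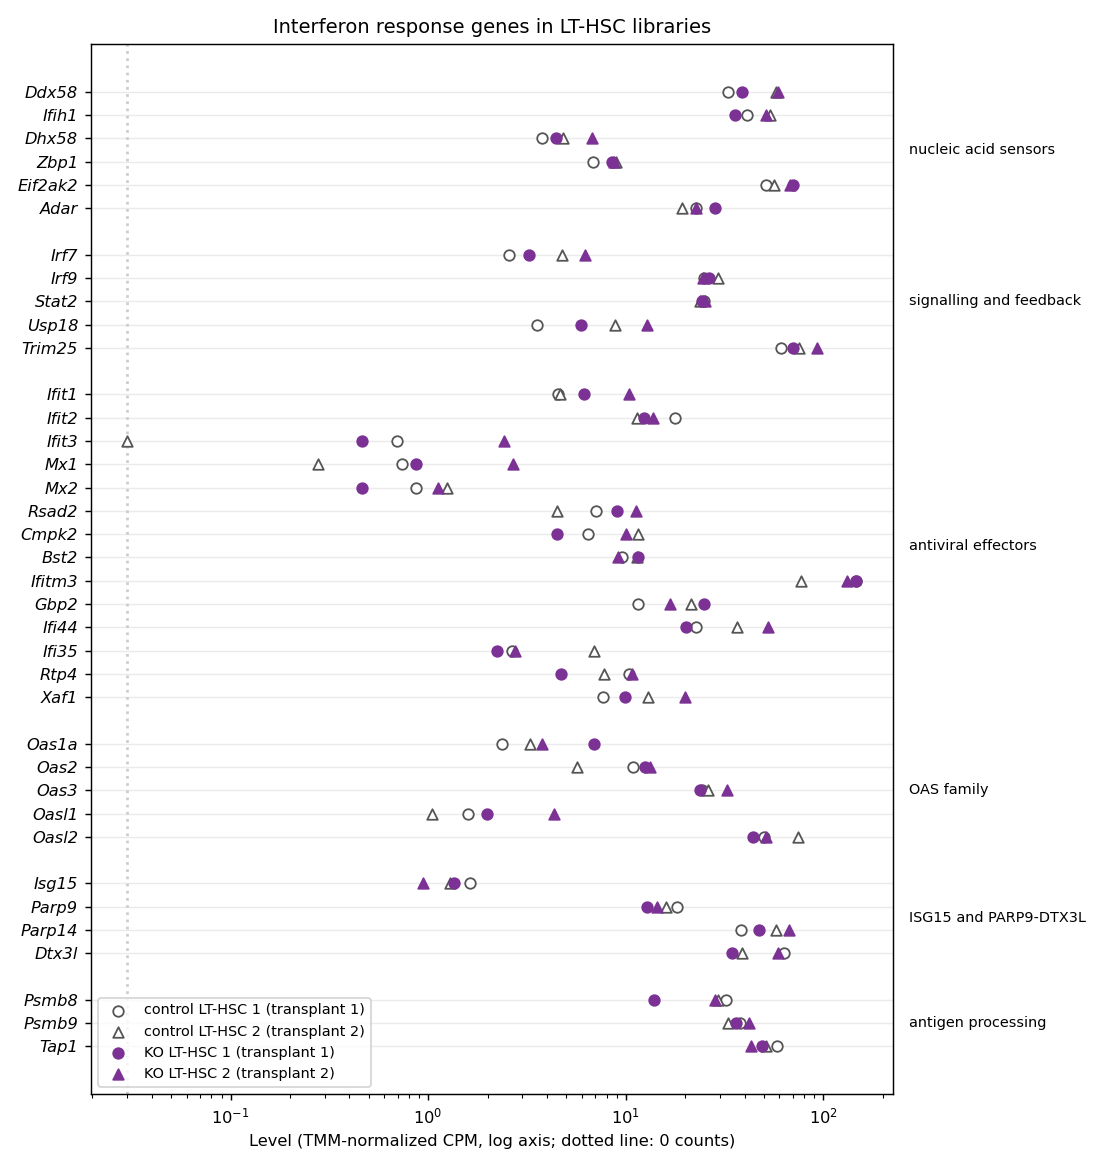
Level of each of the 37 genes in the 4 LT-HSC libraries, in TMM-normalized CPM on a log axis, with genes in rows by role, controls open, KO filled, transplant 1 as circles and transplant 2 as triangles. The dotted line stands for 0 counts. Open and filled symbols are mixed for most genes, and for Usp18, Ddx58, Irf7 and Xaf1 both triangles lie to the right of both circles.

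Over the members the median within-transplant log2 ratio was 0.08 in transplant 1 and 0.24 in transplant 2, and 24 of the 35 had the same sign in both (49.3% of all genes). The library labelled KO LT-HSC 1 was the lowest of the 4 for 11 of the 35 members (23.8% of all genes), and KO LT-HSC 2 the highest for 16 (23.6% of all genes). Leaving out the library labelled KO LT-HSC 1 gave a median log2 fold change of 0.23 with 26 of 35 above 0, and leaving out KO LT-HSC 2 gave -0.06 with 14 above 0. No member passed in either case. The 2 groups also differed in the sex of the donors: Kdm5d, on the Y chromosome, was at 29.9 and 19.2 CPM in controls and 0 in both KO libraries, and Xist was at 240 and 150 against 2170 and 1507. Donor sex and genotype cannot be told apart in LT-HSCs, whereas the 4 LSK and MyePro libraries all held Y-linked reads and had at most 0.613 CPM of Xist.

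None of the 7 pathway lists had a gene past the adjusted threshold in LT-HSCs. Below 0.05 before adjustment, by edgeR, were 3 genes of these lists, all with lower values in KO. They were 1 of 11 negative regulators tested, 1 of 13 sensing adaptors and receptors and 1 of 44 other interferon-induced genes. Of all 12844 genes, 1.28% were lower and 1.01% higher at that threshold. Counts this small are not read as a shift of the lists. The phosphatase gene Ptpn1 was at 20.6 and 37.3 CPM in controls and 13.8 and 11.6 in KO (log2 fold change -1.19 ± 0.39, SE). Unc93b1, whose product carries endosomal Toll-like receptors, had -1.23 ± 0.51 (SE), and the exonuclease gene Isg20 had -1.45 ± 0.47 (SE). Interferon genes had few reads. Ifnk had 11 reads in control 1, 97 in the library labelled KO LT-HSC 1 and 0 in transplant 2, and Ifnb1 had 1 read in control 1. Siglech was at 0.865 and 1.51 CPM in controls and at 2.93 and 1.90 in KO. Several marker lists of mature cells were higher in transplant 2 in both genotypes. The monocyte and macrophage list summed to 19.2 and 91.7 CPM in controls 1 and 2 and to 43.5 and 55.3 in the libraries labelled KO 1 and 2, the T and NK list to 12.0 and 53.2 against 11.8 and 43.8, the B cell list to 1.62 and 32.9 against 3.09 and 22.2, and the neutrophil list to 58.0 and 203 against 125 and 168. The erythroid list was lower in both KO libraries, at 87.0 and 59.8 against 31.1 and 39.1, with 4 of 5 genes below both controls and 2 of them below 0.05 before adjustment. The megakaryocyte list was at 130 and 134 against 81.7 and 193. The part of these cell types in the LT-HSC values of the interferon genes was not tested.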

How the data were processed

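RNA of 8 samples was used, grouped by labelled genotype and cell type. The 6 ChIP samples were not analysed here. The authors deposited unnormalized whole-number read counts, 1 per gene and library. TopHat2, HTSeq 0.6.0 and build mm10 are named per the submitters' processing notes, with tool roles, annotation and strandedness not given in the sources used here. Reads listed as ambiguous made up 0.771% to 2.76% of file totals, and reads not uniquely aligned 23.9% to 37.9%. Both were set apart from the gene counts. Overlapping genes (13 of the 37) and near copies in the OAS, IFIT and MX families could therefore lose reads. All RNA was polyA-selected and only that of LT-HSCs amplified, per the labels' protocols. LSK and MyePro files list symbols. LT-HSC files list Ensembl IDs, of which 37607 (96.0%) matched a symbol. Rows without a gene were dropped: reads without a feature made up 2.40% to 6.25% of LSK and MyePro files and 16.7% to 26.0% of LT-HSC files.

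The 2 sets were normalized apart by TMM in edgeR 4.0.16 (R 4.3.3). LT-HSC genes that reached 1 CPM in 2 or more of the 4 libraries were tested with edgeR's quasi-likelihood test (two-sided, Benjamini-Hochberg, adjusted p under 0.05). LSK and MyePro log2 ratios used a prior count of 2, a mean of at least 5 CPM and exact binomial 95% counting intervals, and the model fit was tested on simulated data. Intervals cover counting error only. Each library is a pool of mice. The labels number LT-HSC libraries by transplant, and deviations from the group means of same-numbered libraries correlated at 0.29 over 12844 genes. Levels correlated at 0.911 between control 1 and KO 1 and at 0.875 between control 2 and KO 2. Across numbers they correlated at 0.882 (control 1 and KO 2) and 0.821 (control 2 and KO 1). With 2 libraries per group these values cannot settle whether the libraries pair by number. The main test used no pairing. Alternatives covered scaling (RLE, library totals, ERCC), filters, prior count, fold threshold, the transplant block, left-out libraries, DESeq2 1.42.0 and limma-voom (limma 3.58.1). Values in every library were given for up to 12 members per comparison, those with the largest ratio (LT-HSCs: the smallest p), and further members were described to account for the list. From other lists up to 4 genes with the largest ratio were named, plus Ifnar1, Ifnar2, Jak1, Tyk2, Irf1, Socs1 and Ly6a, while some genes of these lists are not reported here. Members and gene lists were chosen with earlier results of these data known. Adgre1 was read under its older symbol, Hbb-b1 was not matched, and an unexplained entry named after Dpy30 was left out.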

Additional observations from a re-analysis of the deposited data

How the results depend on the processing

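In LT-HSCs 0 members passed under any of the 11 alternatives, the replicate block for transplant included (0 of 35 members, with 4 genes called overall against 2 without it). Over all genes the other alternatives called 0 to 5, and DESeq2 14. The sign was less firm. Without one library the log2 fold change of Xaf1 ran from -0.0586 (without KO LT-HSC replicate 2) to 0.98, and with library totals that of Trim25 was -0.0015. Library totals also moved the all-gene median to -0.35 and the member median to -0.13, with 11 of 35 above 0, and in LSK moved the all-gene median from -0.06 to 0.09. The cause was not tested. When a library was left out, the lone library of its group was assumed to vary like the other group.

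A 1.5-fold threshold gave 5 members higher and 1 lower in KO against control LSK, and 12 and 2 in MyePro. It gave 13 and 2 in control LSK against MyePro, and 5 higher in KO LSK against MyePro. The share of all genes past 1.5-fold was not computed, so these counts cannot be set against a background. At 2-fold in KO LSK against MyePro, library totals gave 2 higher and a minimum of 10 CPM gave 0, as fewer genes were tested. The other 50 values of counts were within 1.5 times. Library totals moved 5 single-gene LSK ratios beyond their counting intervals. LT-HSC fold changes varied in size without passing: Eif2ak2 was 0.0063 with library totals, Psmb8 -0.11 without the library labelled KO LT-HSC 1, and Ifi35 -0.08 without control LT-HSC 2. Depth limits Ifit3, Mx1, Mx2 and Oas2, and LSK and MyePro values have no replicate.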
